A study of Glycine max with 6 samples.

Results

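The regions described here are places in the soybean genome where chromatin immunoprecipitation and sequencing (ChIP-seq) of the protein GLYMA.04G093300 gave a peak in every library and whose summit lay in the inner part of a chromosome. The peak intervals of the 4 immunoprecipitated libraries were merged where they shared at least 1 base, and a merged region with a peak in all 4 lists was called shared. The summit was that of the peak with the highest -log10 p, and the interior was taken as 0.30 to below 0.70 of the chromosome length, with the last peak of any list as the chromosome end. By this rule 2065 of the 15390 shared regions on the 20 chromosomes were interior, or 13.4% (95% Wilson interval 12.9 to 14.0), in 40% of the length. The other 13325 shared regions on chromosomes served as the comparison. The regions were chosen by the presence of peaks in all lists and by summit position, so neither is a finding here. The name interior holds by construction, since it gives a position and no function.

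The material was embryos of the cultivar Williams 82, dissected at early maturation from seeds of 6 to 7 mm and fixed with 1% formaldehyde. An antibody to 1 peptide of the protein (Ab1) and an antibody to another peptide (Ab2) each precipitated chromatin of 2 biological replicates, and total chromatin of each gave an input library, 2 in all. The labels give residues 117 to 132 and 170 to 180 for the peptides, without saying which antibody had which. All groups shared genotype, stage and growth conditions, and no precipitate with a control antibody or from plants lacking the protein was among the 6 samples, so specific and unspecific precipitation cannot be told apart. Read totals were not used here. Recovered from the deposited values, the median peak held 26 and 35 fragments at its summit with Ab1 (replicates 1 and 2), and 19 and 18 with Ab2, an order kept wherever values are given in pairs below.

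Early maturation is the phase in which a legume embryo turns from cell division to filling with storage protein and oil. Soybean chromosomes are known for a strong division of labour along their length: genes and recombination concentrate toward the ends, while a wide middle around the centromere is packed with repeats, is mostly heterochromatic and holds few genes. Gene and repeat positions were not analysed here, so the interior is a matter of position only and is not equated with heterochromatin on any chromosome.

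Interior regions were sparse but of nearly the same strength as the other shared regions. They occurred at 5.44 per Mb, against 23.4 per Mb for shared regions elsewhere, while their fold enrichment (the authors' ratio of signal over local background at the summit) had medians that differed by under 3% from those elsewhere in every library. In bins of 5% of the length, pooled over chromosomes, the density was 10.3 per Mb at 0.30 to 0.35, 4.53 at 0.40 to 0.45 and 5.27 at 0.45 to 0.50. It was lowest at 0.50 to 0.55, with 2.87 per Mb, and reached 5.40 per Mb at 0.65 to 0.70. Bins outside the interior held 10.3 to 34.6 per Mb. The bin just outside 0.30 held 10.8 per Mb, close to the bin inside it, whereas the bin just outside 0.70 held 10.3 per Mb, well above the bin inside it. Without chromosome 13 the density fell from 3.68 per Mb at 0.40 to 0.45 to 2.92 at 0.45 to 0.50 and 1.64 at 0.50 to 0.55.

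**Figure D1:**
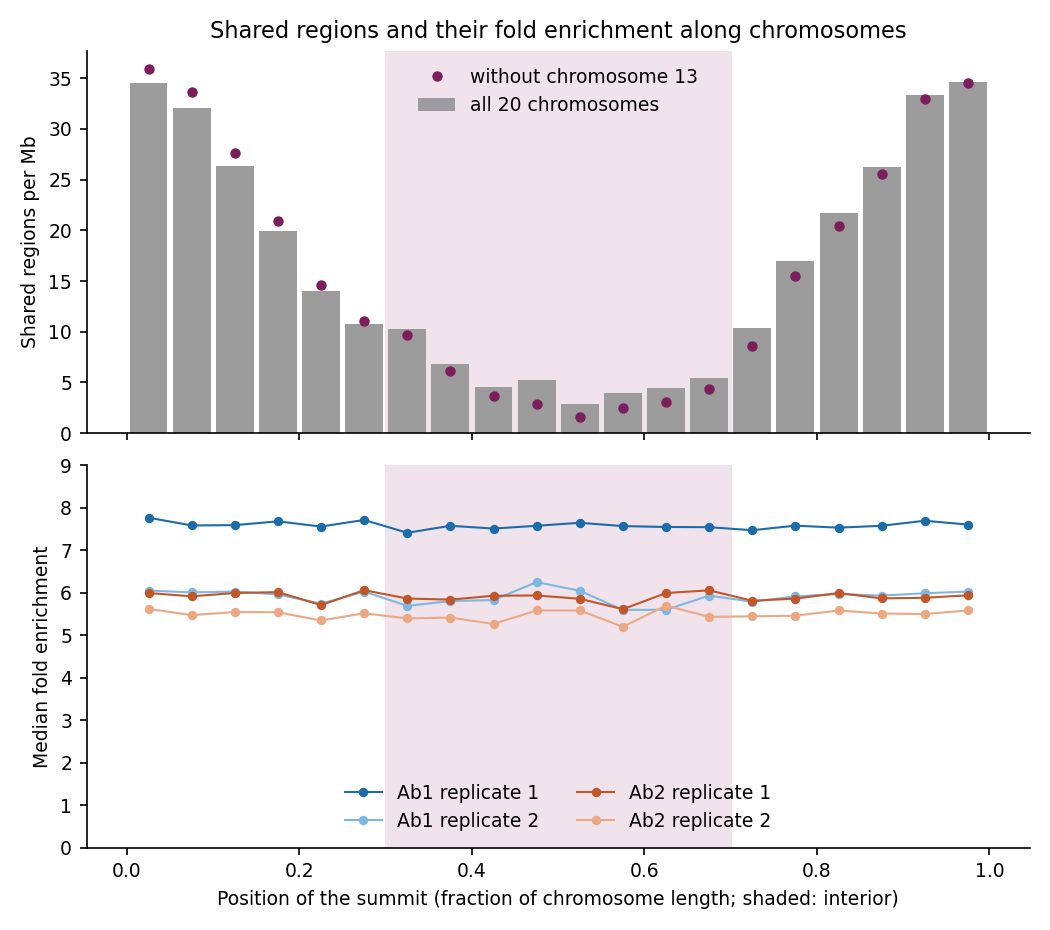
The upper panel gives shared regions per Mb in bins of 5% of chromosome length (bars, all 20 chromosomes; points, without chromosome 13), and the lower panel the median fold enrichment of the shared regions in each bin for the 4 libraries. Density over all chromosomes falls from 34.6 per Mb at the ends to 2.87 per Mb in the middle. The median fold over all bins lies between 7.41 and 7.77 in Ab1 replicate 1 and between 5.60 and 6.25 in Ab1 replicate 2.

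The single regions next to the bounds are given as a description of where the rule cuts. Just inside 0.30 lay chromosome 5 from 12658650 to 12659414, whose fold enrichment was 9.01 and 5.08 with Ab1 and 4.80 and 6.07 with Ab2. Just outside lay chromosome 8 from 14329513 to 14330010, at 7.92 and 7.75 with Ab1 and 4.37 and 4.65 with Ab2. At the other bound both regions were on chromosome 7 with summits 3.87 kb apart. The inner one, from 31237814 to 31238242, had 10.4 and 6.89 with Ab1 and 6.30 and 6.83 with Ab2, and the outer one, from 31241340 to 31242254, had 10.0 and 7.75 with Ab1 and 6.78 and 5.59 with Ab2.

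Chromosome 13 stood apart from all others. It held 534 of the interior regions, 25.9% of them, at 29.1 per Mb, and it was the only chromosome whose interior was denser than its remainder, which had 22.8 per Mb. On the other 19 chromosomes the interior held 27 to 194 regions at 1.65 to 10.2 per Mb, and the interior density was 0.0631 to 0.367 times that of the rest of the same chromosome. By this ratio the lowest was chromosome 10, with 34 interior regions among its 842 shared regions. The highest after chromosome 13 was chromosome 8, with 194 of 987, followed by chromosome 7 with 124 of 741. Without chromosome 13 the interior regions were 10.8% of the shared regions (95% Wilson interval 10.3 to 11.3), at 4.24 per Mb against 23.4 per Mb elsewhere.

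**Figure D2:**
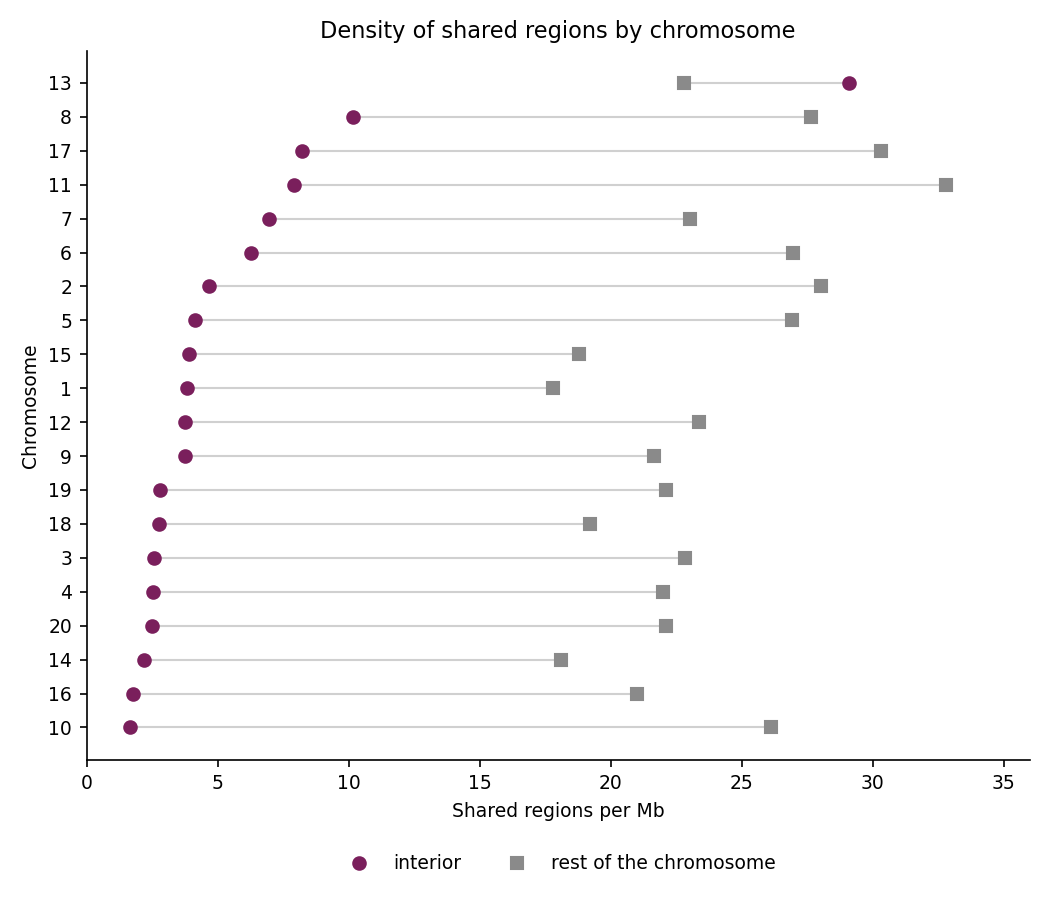
Shared regions per Mb in the interior (circles) and in the rest (squares) of each chromosome, ordered by interior density. The interior is the sparser part on 19 of 20 chromosomes, from 1.65 per Mb on chromosome 10 upward, and the denser part on chromosome 13 at 29.1 per Mb.

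The depleted stretch of chromosome 13 lay outside the interior as defined. Cut into steps of 0.1 of the length, its first 3 steps held 20, 1 and 17 shared regions, and its 4 interior steps held 94, 167, 139 and 134, at 20.5 to 36.4 per Mb. The longest stretch of that chromosome without a shared region measured 4.77 Mb and was centred at 0.168 of its length. On 15 of the 20 chromosomes the longest such stretch was centred in the interior. It ranged from 1.28 Mb on chromosome 11 to 4.77 Mb on chromosome 13 over all chromosomes, and it was 4.32 Mb on chromosome 6 and 4.28 Mb on chromosome 2. On chromosomes 1, 12, 14 and 20 it was centred at 0.228, 0.712, 0.783 and 0.293. A fixed fraction of the length thus did not take in the emptiest part of every chromosome, and values without chromosome 13 are given beside the main comparisons.

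Interior regions were also unevenly spread among themselves. Of 382 windows of 1 Mb with their middle in the interior, 73 (19.1%) held no shared region, against 19 of 554 windows (3.43%) elsewhere. The median interior window held 3 regions (2 without chromosome 13) and the median window elsewhere held 23. At the other end, 388 of the 554 windows elsewhere held at least 10 regions. In the interior 49 windows did, with 1244 of the 2112 regions in interior windows, or 58.9%, in 12.8% of the windows. A window was counted by its middle, so those at a bound can also hold regions beyond it. The 49 interior windows lay on 12 chromosomes, 17 of them on chromosome 13 with 515 regions. The densest was chromosome 13 from 21 to 22 Mb with 49 regions. Chromosome 11 from 10 to 11 Mb held 46, chromosome 2 from 15 to 16 Mb held 39, and the highest window elsewhere held 63.

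Fold enrichment in the interior was the first comparison, made only over regions with a peak in all 4 lists. Both sets had thus passed the same peak calls, and folds of peaks outside shared regions were not compared. The median fold enrichment of interior regions was 7.55 in Ab1 replicate 1, against 7.60 for the other shared regions. In Ab1 replicate 2 it was 5.85 against 5.98. In Ab2 replicate 1 it was 5.89 against 5.92, and in Ab2 replicate 2 it was 5.45 against 5.52. The interior median was the lower one in 4 of 4 libraries, by a mean of -0.017 ± 0.011 on the log2 scale (SD, n = 4), a ratio of 0.977 to 0.994 in the single libraries. The exact two-sided sign-flip test over libraries gave p = 0.13, the smallest p that 4 libraries allow (0.156 after Benjamini-Hochberg adjustment over the 5 tests made), so this design cannot pass 0.05. The difference was -0.024 without chromosome 13, and -0.027 with equal weight for each chromosome and with summits matched within 150 bp. Libraries of the 2 antibodies carry the same biological replicate numbers. Between antibodies, folds of interior regions correlated at 0.708 and 0.643 within a number and at 0.509 and 0.536 across numbers. The 4 libraries should thus not be read as independent. With libraries paired by replicate number, the exact sign-flip p was 0.5 here and for length, spacing and agreement below. That is the smallest p that 2 pairs allow.

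The spread of single regions was far wider than this difference. The quartiles of fold enrichment in Ab1 replicate 1 were 6.11 and 9.40 for interior regions and 6.10 and 9.63 for the others, and in Ab2 replicate 2 they were 4.62 and 6.78 against 4.64 and 6.83. The interior share of the strong tail was slightly lower, with intervals that overlapped over all chromosomes. Ranked by mean rank of fold over the 4 libraries, 18 interior regions (0.872%, 95% Wilson interval 0.552 to 1.37) were among the strongest 1% of all shared regions. Of the other regions 1.02% (0.864 to 1.21) were. Among the strongest 10% were 176 interior regions (8.52%, 7.39 to 9.81), against 10.2% (9.73 to 10.8) of the other regions. Without chromosome 13 the latter share of interior regions was 8.16% (6.90 to 9.64). By definition these classes hold 1.00% and 10.0% of all shared regions. Intervals cover counting error only and treat regions as independent, which neighbours are not.

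By chromosome, the interior median was lower than that of the rest on 15 and 16 of 20 chromosomes with Ab1 and on 12 and 13 with Ab2. It was lower in all 4 libraries on 7 chromosomes and higher in all 4 on 1. The interior-minus-other difference of the Ab1 libraries minus that of the Ab2 libraries was -0.0074 on the log2 scale (exact two-sided permutation test of the 4 library values, p = 0.667, where 0.33 is the smallest possible).

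The parts that make up the fold were close as well. Median fragments at the summit of interior regions were 43 and 47 with Ab1 and 22 and 20 with Ab2, against 44, 49, 23 and 20 for the others in the same order. The median local background was 4.58, 6.00, 2.80 and 2.69 fragments for interior regions and 4.61, 6.00, 2.88 and 2.69 for the others, on each library's own scale. No shared region, interior or not, had in any library a strongest peak whose background reached 10 times the median of its list.

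The strongest interior region, by mean rank, was on chromosome 12 from 17234567 to 17235382, the eighth strongest of all shared regions. Its fold enrichment was 22.2 and 15.8 with Ab1 and 15.3 and 21.2 with Ab2, from 123, 125, 67 and 77 fragments at the summit. It stood alone, with its nearest shared neighbour 304 kb away.

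The region on chromosome 13 from 22502246 to 22502897 followed at 19.5 and 16.8 with Ab1 and 16.7 and 15.1 with Ab2. On chromosome 17 from 12527520 to 12528831 the folds were 22.0 and 15.5 with Ab1 and 15.6 and 14.9 with Ab2. This latter region sat in a cluster, between neighbours at 1.82 and 1.87 kb. Strong interior regions thus occurred both in isolation and in company.

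A pair of strong regions lay on chromosome 14, whose interior held only 43 shared regions. The first of them, from 24169646 to 24170282, had 19.4 and 15.2 with Ab1 and 15.9 and 16.1 with Ab2. The second, from 32163668 to 32164641, had 20.5 and 13.3 with Ab1 and 19.0 and 14.2 with Ab2. Its 4 summits lay within 25 bp of each other. All 5 regions were picked for high folds, so that their values describe the top of the range and test nothing. Of the 20 strongest interior regions 5 were on chromosome 13, which held 25.9% of all interior regions.

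The region nearest to the middle of any chromosome was on chromosome 18 from 28978019 to 28978561, at 0.49984 of the length. Its folds were among the lower ones, at 5.12 and 3.58 with Ab1 and 4.20 and 4.63 with Ab2. The next nearest was on chromosome 13 from 22949057 to 22950131, with 13.4 and 10.9 with Ab1 and 10.5 and 10.8 with Ab2. These 2 most central regions thus differed widely in strength. In the 8 interior bins of the plot along chromosomes the median folds were 5.60 to 6.25 in Ab1 replicate 2 and 5.20 to 5.70 in Ab2 replicate 2. In the 12 bins outside they spanned less in both, at 5.75 to 6.06 and 5.35 to 5.62. Ab2 replicate 1 had 5.62 to 6.06 in the interior bins and 5.71 to 6.06 outside. In Ab1 replicate 1 the bins outside spanned more, at 7.48 to 7.77 against 7.41 to 7.65. Interior bins held 136 to 488 regions each and those outside 490 to 1643, which was not allowed for in these ranges.

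**Figure D3:**
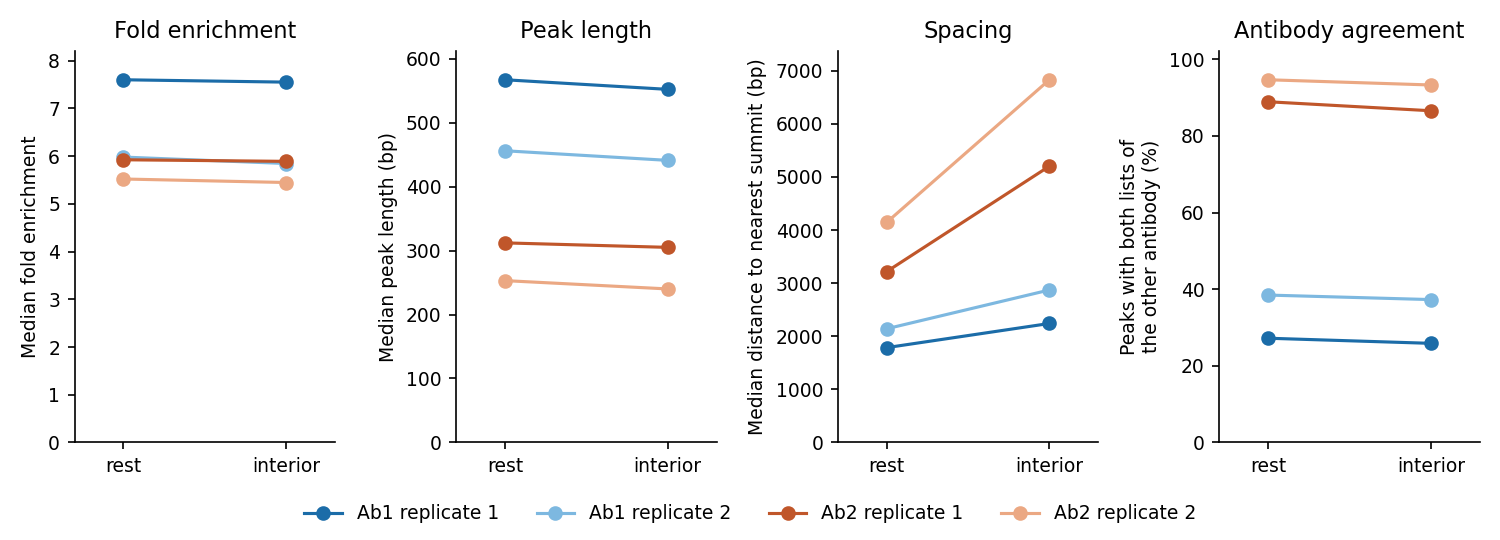
Values of the interior and of the rest in each of the 4 libraries (lines join values of the same library): median fold enrichment and median peak length over shared regions, and, over all peaks of each list on chromosomes, the median distance to the nearest summit and the share of peaks with peaks of both lists of the other antibody. The lines are nearly flat for fold, length and agreement and rise for spacing, from 4144 to 6831 bp in Ab2 replicate 2.

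Interior regions were slightly shorter than the others. Merged interior regions had a median length of 588 bp (quartiles 453 and 797), against 604 bp (463 and 831) for the others, a ratio of 0.974 (95% binomial interval of the interior median 0.95 to 1.00). Peaks were shorter in the interior in 4 of 4 libraries, with medians of 552, 441, 305 and 240 bp against 567, 456, 312 and 253 bp, with the Ab1 libraries first. The mean difference was -0.049 ± 0.019 on the log2 scale (SD, n = 4; exact two-sided sign-flip p = 0.13, the smallest possible, adjusted 0.156), -0.062 without chromosome 13 and -0.029 with lists of equal length. On 14 of the 20 chromosomes the interior regions were the shorter ones. Regions of at least 1500 bp made up 2.37% of the interior (49 regions, 95% Wilson interval 1.80 to 3.12) and 3.06% (2.78 to 3.37) of the rest. The interior regions covered 1.38 Mb in all.

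The longest interior region, on chromosome 13 from 24596765 to 24600102, spanned 3338 bp and held 1 and 4 peaks with Ab1 and 3 and 4 with Ab2. Its strongest peaks had folds of 10.8 and 9.33 with Ab1 and 8.41 and 7.58 with Ab2, and their summits lay up to 1342 bp apart, so that the libraries did not place their strongest point alike. The next longest, on chromosome 11 from 11181170 to 11183788, spanned 2619 bp with folds of 14.2 and 10.1 with Ab1 and 9.10 and 12.1 with Ab2. Another, on chromosome 8 from 21199071 to 21201618, spanned 2548 bp with folds of 9.55 and 6.58 with Ab1 and 8.12 and 6.05 with Ab2. Such regions held several peaks in at least 2 libraries. Over all interior regions, 2.08% and 8.67% held more than 1 peak with Ab1 and 9.88% and 9.01% with Ab2, against 2.49%, 8.45%, 10.9% and 9.75% of the others.

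Spacing was where the interior differed most. The median distance from an interior region to the nearest other shared summit was 12.2 kb (95% binomial interval 11.2 to 14.4), against 7.45 kb (7.23 to 7.71) for the others, and 17.8 kb (15.7 to 20.5) without chromosome 13. On chromosome 13 itself it was 6.44 kb. The interior value was the wider one on 18 of 20 chromosomes and reached 122 kb on chromosome 10 and 102 kb on chromosome 20, while the values outside ranged from 5.80 to 9.12 kb. In the full lists, which do not use the requirement of all 4 libraries, interior peaks were further apart in 4 of 4 libraries, at 2241, 2872, 5204 and 6831 bp against 1786, 2141, 3218 and 4144 bp, with the Ab1 libraries first. The mean difference was 0.54 ± 0.20 on the log2 scale (SD, n = 4; exact two-sided sign-flip p = 0.13, the smallest possible, adjusted 0.156). It was 0.80 without chromosome 13 and 1.13 with equal weight for each chromosome.

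Pooled over chromosomes, the nearest neighbour widened less than the density fell. The mean stretch per region was 184 kb in the interior and 42.7 kb elsewhere, 4.30 times as long, whereas the median nearest neighbour was 1.64 times as far. Without chromosome 13 the ratios were 5.53 and 2.39. The difference lay in the long distances. The lower quartile was 2.95 kb in the interior and 2.49 kb elsewhere, and the upper quartile was 51.4 kb and 19 kb. Of the interior regions, 17.7% (16.1 to 19.4) had a shared neighbour within 2 kb, against 20.2% (19.6 to 20.9) of the others and 19.9% of all shared regions. At the far end, 335 interior regions (16.2%, 14.7 to 17.9) had none within 100 kb, against 2.15% (1.92 to 2.41) of the others and 4.04% of all. Only 2 of the 335 were on chromosome 13. Taken singly, most chromosomes followed the pooled order, but on chromosomes 10, 14 and 20 the nearest neighbour widened more than the density fell. On chromosome 10 its median was 122 kb in the interior and 6.34 kb in the rest, at 1.65 and 26.1 regions per Mb.

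**Figure D4:**
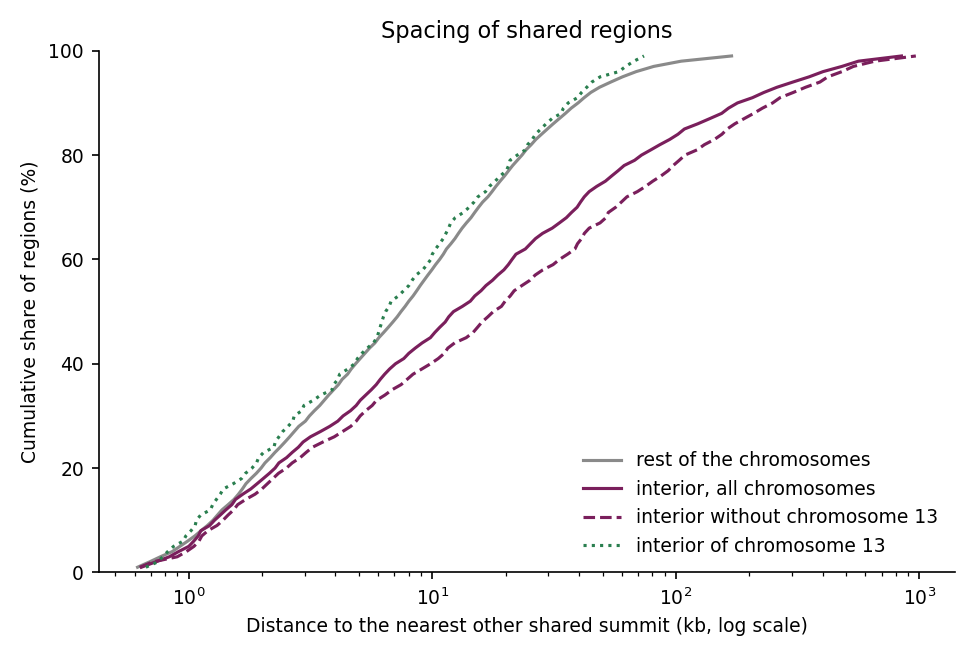
Cumulative share of shared regions (y axis) by the distance to the nearest other shared summit (x axis, kb on a log scale, percentiles 1 to 99). The curves run close together up to a few kb and separate above that, with medians of 7.45 kb outside the interior, 12.2 kb in it, 17.8 kb without chromosome 13 and 6.44 kb in the interior of chromosome 13.

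The closest interior pair lay on chromosome 2, from 15046722 to 15046997 and from 15047098 to 15047532, with summits 445 bp apart. The left region had folds of 6.39 and 4.20 with Ab1 and 4.99 and 5.21 with Ab2, and the right one was higher in all 4 libraries at 8.60 and 8.06 with Ab1 and 7.13 and 6.63 with Ab2. Both fall in the dense window of chromosome 2 named above. The most isolated region was on chromosome 8 from 30462375 to 30463068, with its neighbours 1706 and 2889 kb away. It was not weak, with folds of 10.4 and 8.90 with Ab1 and 6.62 and 6.39 with Ab2. The second most isolated was on chromosome 16 from 15845944 to 15846420, with neighbours at 1666 and 2792 kb and folds of 7.77 and 4.68 with Ab1 and 6.06 and 3.78 with Ab2.

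Agreement between the antibodies was the last comparison. Of all 9037 merged regions with an interior summit, 22.9% had a peak in all 4 lists, against 24.3% of those elsewhere and 24.1% of all regions on chromosomes; this contrast chose the regions and is given as a description. Regions with a peak in a single list made up 38.0% of the interior and 36.6% of the rest (36.8% of all). The interior share hardly depended on the library. It was 14.0% and 13.8% of the 58956 and 43950 Ab1 peaks on chromosomes and 13.7% and 13.6% of the 27856 and 21188 Ab2 peaks.

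Both Ab1 libraries held 5132 interior regions, and both Ab2 libraries recovered 40.2% of them (38.9 to 41.6), while 27.0% were recovered by 1 and 32.7% by neither. Elsewhere both recovered 41.3% (40.8 to 41.9) of 32237 regions, and over all chromosomes 41.2%. The difference was -1.10 percentage points (95% Newcombe interval -2.54 to 0.354). Without chromosome 13 the interior share was 39.1% (37.6 to 40.6). With lists of equal length the shares rose to 73.1% in the interior and 72.7% elsewhere, a difference of 0.341 percentage points. In the full lists both shares were higher for stronger Ab1 regions. Split by Ab1 fold into 5 classes of equal size, the weakest had 4.44% of interior and 4.15% of other regions recovered by both Ab2 libraries, and the strongest 94.8% and 95.3%. In the second class the shares were 13.2% (11.3 to 15.4) and 12.4% (11.7 to 13.3), in the middle class 27.6% (25 to 30.4) and 30.5% (29.4 to 31.6), and in the fourth 65.5% (62.5 to 68.3) and 63.6% (62.4 to 64.8). The interior share was thus the higher one in 3 of the 5 classes, and the intervals overlapped in all 5.

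**Figure D5:**
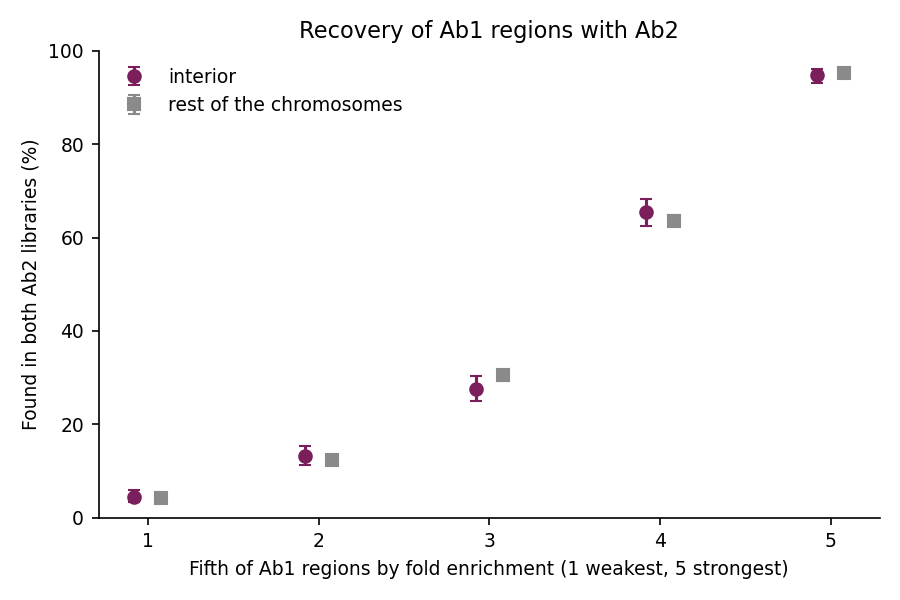
Share of regions of both Ab1 libraries that had a peak in both Ab2 libraries, in 5 equal classes of Ab1 fold enrichment, for the interior (circles) and the rest (squares), with 95% Wilson intervals. Both series climb together, from 4.44% and 4.15% in the weakest class to 94.8% and 95.3% in the strongest.

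In the other direction, 97.4% (96.6 to 98.0) of 2120 interior regions of both Ab2 libraries were found in both Ab1 libraries, against 98.3% (98.0 to 98.5) of 13562 elsewhere and 98.1% of all. This difference of -0.847 percentage points (95% Newcombe interval -1.64 to -0.207) moved with peaks of high background. Of the 30 interior regions found with both Ab2 libraries and neither Ab1 library, 27 had a background of at least 10 times the list median in both Ab2 libraries, with median folds of 1.63 and 1.60. Elsewhere the same held for 67 of 82 such regions (81.7%), with median folds of 1.68 and 1.61. High-background peaks were 1.39% and 1.25% of the interior Ab2 peaks and 0.370% and 0.437% of their other peaks. In the Ab1 lists there were 5 in replicate 1, of which 1 was interior, and 0 in replicate 2. With these peaks removed the shares were 98.7% and 98.8%, a difference of -0.053 percentage points. With lists of equal length they were 81.9% in the interior and 84.2% elsewhere. The level of recovery in each direction thus moved with list length, and the 2 directions are not comparable as they stand.

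Over single peaks, agreement was slightly lower in the interior in 4 of 4 libraries. Peaks of both Ab2 libraries lay with 25.9% and 37.3% of the interior Ab1 peaks, against 27.2% and 38.5% of their other peaks. Peaks of both Ab1 libraries lay with 86.6% and 93.3% of the interior Ab2 peaks, against 88.9% and 94.7%. The mean difference was -1.56 ± 0.534 percentage points (SD, n = 4; exact two-sided sign-flip p = 0.13, the smallest possible, adjusted 0.156). It was -1.14 without the peaks of high background, -2.25 without chromosome 13 and -2.78 with equal weight for each chromosome. Each library's share was computed with both lists of the other antibody. The 4 differences therefore overlap and are not 4 separate observations.

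Within the shared regions the spread of summits was similar in the interior and elsewhere. That summits lie near each other follows in part from the rule, which merged overlapping peaks. The 4 summits of an interior region spanned a median of 83 bp (quartiles 52 and 141), against 80 bp (50 and 139) elsewhere, and lay within 100 bp in 61.0% (58.8 to 63.1) and 61.9% (61.1 to 62.7) of regions. Summits of the same antibody were a median of 34 and 43 bp apart in interior regions, and summits of different antibodies 37 to 42 bp, so that distances between antibodies lay within the range of those between replicates. As a description over the 2065 regions, which share libraries, the Spearman correlation of fold was 0.586 for the Ab1 pair and 0.479 for the Ab2 pair. For different antibodies it was 0.708 and 0.643 within replicates 1 and 2 and 0.509 and 0.536 across them. The values elsewhere were 0.603, 0.50, 0.709, 0.669, 0.521 and 0.538 in the same order.

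A few interior regions ranked very differently with the antibodies. They were chosen for that difference, so it is not tested. The region on chromosome 11 from 11860137 to 11860512 stood higher with Ab1, at folds of 9.43 and 7.91 against 5.68 and 3.31 with Ab2, and so did the region on chromosome 17 from 14654110 to 14655007, at 7.71 and 7.75 against 3.64 and 4.45. Chromosome 13 from 25279150 to 25280201 stood higher with Ab2, at 9.59 and 5.97 against 6.35 and 4.23 with Ab1, and chromosome 15 from 19747955 to 19748259 at 8.08 and 8.76 against 7.56 and 4.18. Folds are scaled within each library, so ranks are the firmer measure. Of 15390 ranks, with 1 the strongest, the mean rank with Ab1 and with Ab2 was 3516 and 11805 for the region on chromosome 11 and 5329 and 13592 for that on chromosome 17. It was 12173 and 3656 on chromosome 13 and 10674 and 2165 on chromosome 15.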

How the data were processed

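Peak lists of 4 ChIP libraries in 2 groups of 2 were analysed, and groups and replicate numbers were read from the sample titles. Chromatin was sonicated to 100 to 500 bp, precipitated with 2 ug of antibody and enriched in 15 cycles of PCR, per the labels' protocols. The submitters' processing notes name Bowtie 0.12.7 and MACS2. No source used here gives the genome build. Each list was made per library. Fold enrichment, a ratio, and the −log10 p and −log10 q values were deposited by the authors and used as they stand, and the deposited score was not used. Every deposited q-value was at most 0.01. Coordinates are those of the deposited lists, given 1-based.

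A region took each library's strongest peak. Fragments and background at summits were recovered from fold and p by the peak caller's formulas, with whole fragments for 100% of peaks (tolerance 0.003 in −log10 p); Ab1 replicate 2 needed a pile-up scale of 0.881. The scripts were tested on simulated data. Differences were tested by exact sign flips over libraries in Python 3.11.15 with scipy 1.17.1. Regions and peaks are not replicates and got no test; Wilson, Newcombe and order-statistic intervals cover counting error only, and PCR duplicates are not separate molecules. Sequencing depth in reads is unknown.

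Same-numbered libraries carry the number of the same biological replicate, per the labels; fold ranks correlated at 0.708 and 0.643 between antibodies within a number and at 0.509 and 0.536 across numbers. The named regions are the 5 strongest, 3 longest, 2 most central, closest pair, 2 most isolated, 4 of most unlike antibody rank and those at the bounds. Members, rules and tests were chosen with earlier results of these data known.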

Additional observations from a re-analysis of the deposited data

Results flagged for a closer look

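Shared regions on unplaced scaffolds lie outside the comparison of interior and other regions, since a scaffold has no interior. Peaks of all 4 lists met in 83 regions on 21 scaffolds. Their median fold enrichment was 7.70 and 6.44 with Ab1 and 5.78 and 5.65 with Ab2, replicate 1 first. Where these scaffolds belong along the chromosomes was not tested.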

How the results depend on the processing

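Of 133 alternatives over 10 results, 126 stayed within the limits set for a change, 5 went beyond them and 2 turned the sign of the antibody difference in fold. Some of the 126 could not move. Matching summits within 150 bp does not enter spacing. No shared region had a strongest peak of high background, so removing such peaks left members, fold, lengths, summit span and recovery of Ab1 regions as reported. For the 4 results tested by sign flips only a change of sign could count, since no p can pass the threshold; a recovery difference counted as changed only beyond the Newcombe interval of the reported one. Leaving out chromosome 13 and leaving out peaks of high background were chosen after seeing the data. With the interior from 0.35 to 0.65, 1321 regions were interior, by construction, and the antibody difference in fold became 0.0030 on the log2 scale. That difference was never past a threshold. Recovery of Ab2 regions with Ab1 differed between interior and rest by -2.29 percentage points with lists of equal length and by -0.053 without peaks of high background, and recovery of Ab1 regions with Ab2 by -2.65 with equal weight per chromosome; the cause was not tested. Over all alternatives these recoveries differed by -2.42 to -0.053 and by -2.65 to 0.341 percentage points. Within its interval, recovery of Ab1 regions with Ab2 turned to 0.341 with lists of equal length and was -2.19 without chromosome 13 and -1.93 with −log10 q of at least 5. Leaving out 1 library in turn gave 2073 to 3049 interior regions, since a peak in the remaining 3 lists was then enough, and differences of -0.017 to -0.010 for fold, -0.058 to -0.042 for peak length and 0.48 to 0.61 for spacing on the log2 scale. Agreement differed by -1.68 to -1.22 percentage points, recovery of Ab1 regions with Ab2 by -1.43 to -0.991 and that of Ab2 regions with Ab1 by -2.42 to -0.683, the latter without Ab2 replicate 2 at -2.42. The antibody difference in fold ranged from -0.017 to 0.0031, the sign changing without Ab1 replicate 2. The ratio of region lengths was 0.967 to 0.975 and that of summit spans 1.00 to 1.05. Blocking on the replicate number (pairing the libraries) left the differences in fold, peak length, spacing and agreement at -0.017, -0.049, 0.54 and -1.56 and the antibody difference at -0.0074, by arithmetic, each with an exact p of 0.5, the smallest 2 pairs allow. Median summits of 18 to 35 fragments limit what can be said of weak regions.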
